A study of Arabidopsis thaliana with 3 samples.

Results

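The genes described here encode proteins of the large (60S) subunit of the cytosolic ribosome of Arabidopsis thaliana. A list of 60 loci for 25 of these proteins was taken as given, chosen with earlier results of these data known. A locus was kept where the platform annotation pairs a probe set with that locus alone. This held for 37 of the 60 loci, each with 1 probe set, which cover 18 of the 25 proteins, out of 22746 probe sets on the array. Of the 23 loci left out, 3 lie on 2 probe sets shared with another locus, and 20 are paired with none in the annotation used. The loci of L3, L5, L10, L11, L23, L23a and L24 were all among those left out. The other proteins of the subunit, among them L21, L27 to L40 and the acidic stalk proteins, are not in the list.

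Seed of ecotype Columbia, surface-sterilised, was studied in 3 states with 1 Affymetrix ATH1 array each, hybridised with labelled total RNA. One array held seed imbibed for 3 days with 10 µM trichostatin A (TSA), which blocks histone deacetylases, one held seed imbibed for 3 days on the same medium without it, and one held unimbibed seed. Imbibed seed lay on agar medium under a 16 h light regime. The treatment text of the labels gives the TSA concentration in mM, and the µM value is that stated for the treated sample. No group has a replicate, so no difference has a replicate check and no test was made. The whole seed was extracted, so fewer cells of a type and less RNA per cell cannot be told apart.

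A cytosolic ribosome joins a small 40S subunit, which reads the messenger RNA, to a 60S subunit, which forms peptide bonds and holds the tunnel through which the new protein leaves. Arabidopsis keeps small families of near-identical genes for nearly every ribosomal protein, and the paralogs of a family are thought to supply the same place in the ribosome. Dry seeds store ribosomes and messenger RNAs, and the making of new ribosomes resumes as the seed takes up water and germinates. Histone deacetylases remove acetyl groups from histones, which generally lowers transcription of the underlying genes.

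Signals are MAS5 values, scaled so that the 3 arrays had the same 2% trimmed mean. A signal below 10.7, the 40th percentile of all values, was raised to that floor before a log2 ratio was taken. "Rose" and "fell" are written of ratios of at least 2-fold, a log2 ratio of at least 1 in size. Of the 37 genes, 36 were above the floor on at least 1 array. The exception was AT3G48960, an L13 gene, with signals of 2.23 with TSA, 6.76 without it and 0.57 in unimbibed seed, all below the floor, so it is counted in no comparison. All 6 measured dry seed markers were lower by over 2-fold in untreated imbibed than in unimbibed seed, and all 4 photosynthetic markers were higher. These marker lists were chosen with earlier results of these data known, so they are not an independent check of the labels. The 3′ over 5′ signal of the actin control, a sign of RNA integrity, was 4.31 with TSA, 4.66 without it and 1.82 in unimbibed seed, that of GAPDH was 1.497, 0.876 and 1.31 in the same order, and that of ubiquitin was 2.71, 3.17 and 3.87.

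TSA-treated seed was compared with untreated imbibed seed to describe how germination differs with the inhibitor present. Every measured 60S gene fell with TSA: 36 of 36 were at least 2-fold lower, where 9.51% of all measured probe sets were lower and 10.4% higher. Since the list was chosen with earlier results of these data known, this count describes the list and is not independent evidence. The median log2 ratio of the 36 genes was -1.61, a level 3.05-fold lower with TSA, against a median of -0.02 over 15700 measured probe sets. The ratios ran from -2.63 to -1.20, and their quartiles were -1.81 and -1.52. Their SD was 0.35, while that over all measured probe sets was 0.87. At least 3-fold lower were 21 of the 36, against 2.76% of all probe sets, and at least 4-fold lower were 8, against 0.949%. Of the 36, only AT3G51190 reached the floor with TSA, so its fall is a bound. All 6 other scalings of the arrays also gave 36 genes at least 2-fold lower. The poly-A control scaling moved the ratios of all probe sets by -0.43, and the other 5 by -0.08 to 0.03.

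The size of the shift was set beside measures of array error. The 18 hybridisation controls, transcripts added after labelling, had a mean log2 ratio of 0.07 between the TSA and untreated arrays, with an SD of 0.14. Where 2 probe sets of the same locus were above the floor on both arrays, their ratios differed by 0.56 (root mean square over 46 loci). The smallest fall among the members, -1.20, was larger than either of these. Neither measure holds the variation between batches of seed, which was not measured here.

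**Figure D1:**
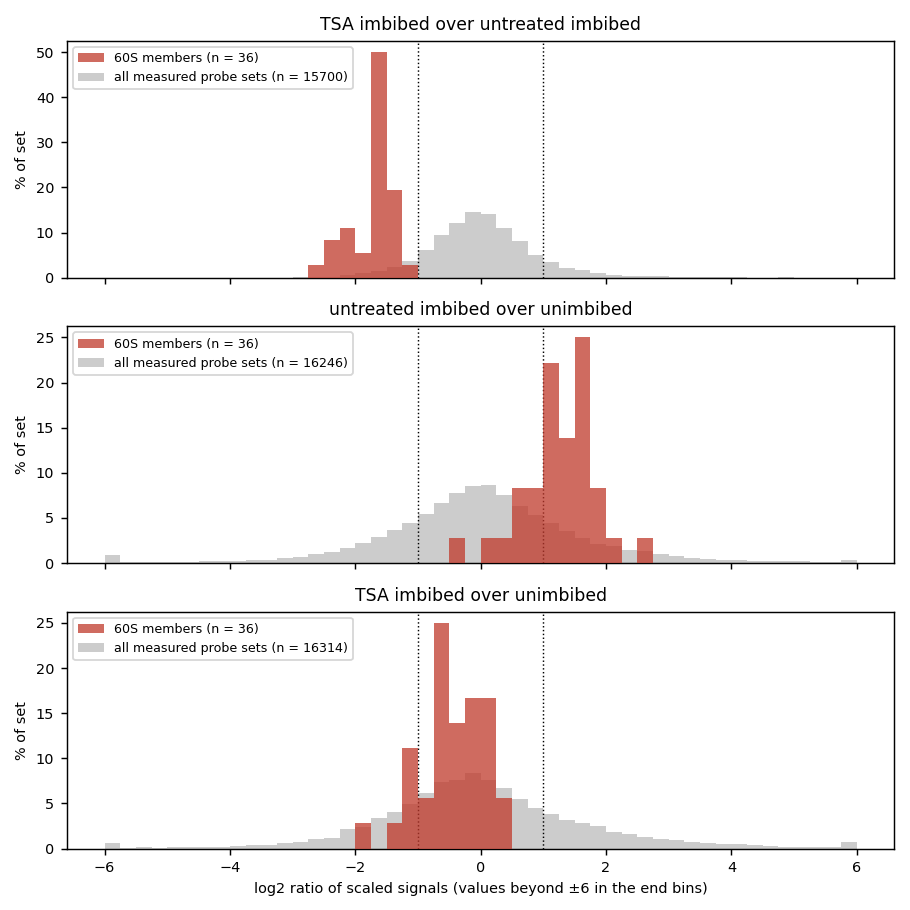
Histograms of log2 ratios of scaled signals (x axis) as a percent of each set (y axis) for the 36 measured 60S genes (red) and all measured probe sets (grey), in the 3 comparisons; dotted lines mark 2-fold. With TSA against untreated imbibed seed all 36 genes lie left of the lower line, between -2.63 and -1.20, while the grey distribution is centred near 0.

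The falls were seen in every protein that could be measured, whatever its place in the subunit. L4, L17 and L26 line the exit tunnel or its mouth. The L4 gene AT3G09630 had a signal of 307 with TSA, 935 without it and 467 in unimbibed seed. Its paralog AT5G02870 had 303 with TSA, 1001 without it and 295 in unimbibed seed. Untreated imbibed seed was highest for both. The TSA and unimbibed signals of AT5G02870 were nearly equal in the main scaling, but were 352 and 205 without any scaling. For L17, AT1G67430 had 611 with TSA, 1856 without it and 885 in unimbibed seed. Its paralog AT1G27400 had 152 with TSA, 463 without it and 114 in unimbibed seed. Both L17 genes had almost the same TSA ratio against untreated seed, -1.60 and -1.61, although their ratios of untreated to unimbibed seed were 1.07 and 2.02. The L26 gene AT3G49910 had 599 with TSA, 1795 without it and 558 in unimbibed seed, a TSA ratio of -1.58.

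L10a forms the mobile stalk beside the exit site for transfer RNA, and L12 lies at the base of the opposite stalk, where elongation factors bind. AT2G27530, named PGY1 (PIGGYBACK1), encodes L10a and had 273 with TSA, 828 without it and 555 in unimbibed seed. Its paralog AT1G08360 had 158 with TSA, 485 without it and 255 in unimbibed seed. The other L10a gene, AT5G22440, had 92.2 with TSA, 231 without it and 109 in unimbibed seed. The TSA log2 ratios of these L10a genes ran from -1.62 to -1.32. For L12, AT3G53430 had 438 with TSA, 1270.1 without it and 391.9 in unimbibed seed. AT2G37190 had 227 with TSA, 668 without it and 208 in unimbibed seed. The third L12 gene, AT5G60670, had 70.0 with TSA, 365 without it and 54.8 in unimbibed seed. It had the largest rise on imbibition among the members, with a log2 ratio of 2.74, and a TSA ratio of -2.38, against -1.56 and -1.53 for its paralogs. All of the L12 genes were slightly higher with TSA than in unimbibed seed, by log2 ratios of 0.13 to 0.35 in the main scaling; the order of these 2 states depends on the scaling for many members, as given further on.

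L8 belongs to the core around the peptidyl transferase centre, and L9 lies near the site where elongation factors act. The measured L8 gene, AT3G51190, was dim, with 5.33 with TSA, 26.1 without it and 16.96 in unimbibed seed; it was at least 2.43-fold lower with TSA than without. The L9 gene AT4G10450 had 38.2 with TSA, 178 without it and 77.7 in unimbibed seed, a fall of 4.66-fold with TSA. A probe set that L9 locus AT1G33120 shares with its neighbour AT1G33140 had 389 with TSA, 1041 without it and 566 in unimbibed seed, with a TSA log2 ratio of -1.42. The shared probe set of the L6 loci AT1G74060 and AT1G74050 had 284 with TSA, 587 without it and 299 in unimbibed seed, with a TSA log2 ratio of -1.05. These shared probe sets are not counted among the 37. Both went the same way as the members.

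The remaining proteins lie mostly on the outer, solvent-facing side of the subunit or among its ribosomal RNA folds. AT1G18540, the L6 gene with a probe set of its own, had 138 with TSA, 718 without it and 244 in unimbibed seed, a 5.20-fold fall with TSA. The L7a gene AT2G47610 had 235 with TSA, 957 without it and 341 in unimbibed seed. Its paralog AT3G62870 had 375 with TSA, 1283 without it and 395 in unimbibed seed. These genes were lowest with TSA in the main scaling. The L13 gene AT5G23900 had 129.5 with TSA, 325 without it and 109.9 in unimbibed seed. In each of these genes the untreated imbibed seed was the highest of the 3 states. For L15, AT4G16720 had 348 with TSA, 1105 without it and 458 in unimbibed seed. Its paralog AT4G17390 had 359.8 with TSA, 1191 without it and 307 in unimbibed seed. In the main scaling unimbibed seed was above TSA-treated seed for the first of this pair and below it for the second. Without any scaling it was below TSA-treated seed for both. The L18 gene AT5G27850 had 291 with TSA, 839.9 without it and 489 in unimbibed seed. For L22, AT3G05560 had 244 with TSA, 810.3 without it and 309 in unimbibed seed. Its paralog AT5G27770 had 94.5 with TSA, 267 without it and 112 in unimbibed seed. The TSA log2 ratios of the L15, L18 and L22 genes ran from -1.73 to -1.497. The L18a gene AT2G34480 had 608 with TSA, 2009 without it and 973 in unimbibed seed. Its paralog AT3G14600 had 217 with TSA, 533 without it and 442 in unimbibed seed, so its rise on imbibition was small, at 0.27. L19, which takes part in a bridge between the subunits, had 55.1 with TSA, 229.8 without it and 65.1 in unimbibed seed for AT3G16780. Its paralog AT4G02230 had 127 with TSA, 368 without it and 219.8 in unimbibed seed.

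**Figure D2:**
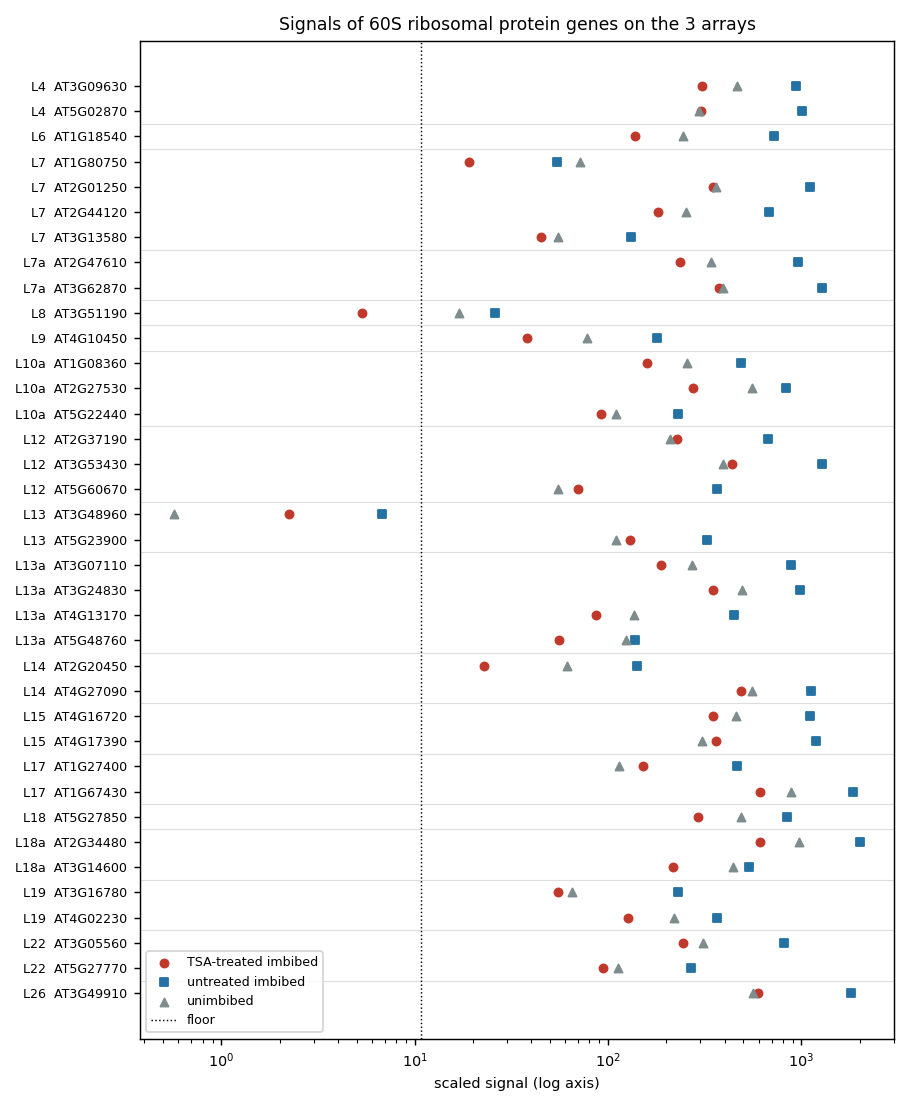
Scaled signal (x axis, log scale) of each of the 37 genes (rows, grouped by protein) on the TSA-treated imbibed array (red circles), the untreated imbibed array (blue squares) and the unimbibed array (grey triangles); the dotted line is the floor of 10.7. The blue square is rightmost in every row above the floor except AT1G80750, and the red circle lies left of it in all.

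Paralogs of the same protein were compared by their ratios between arrays, since signals of different probe sets cannot be set against each other. There were 26 pairs of measured paralogs in 12 proteins, and pairs within a family share genes. With TSA against untreated seed, paralogs differed by a median of 0.26 in log2 ratio, and 2 of 26 pairs differed by over 1 (7.69%). Among the 604 pairs of genes for different proteins the median difference was 0.30, and 38 pairs (6.29%) differed by over 1. The share of discordant pairs was therefore close to that between unrelated 60S proteins.

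The widest TSA difference between paralogs was in L14. AT2G20450 had 22.9 with TSA, 142 without it and 61.4 in unimbibed seed, a 6.18-fold fall with TSA that was the largest among the members. Its paralog AT4G27090 had 487 with TSA, 1123 without it and 556 in unimbibed seed, a 2.30-fold fall that was the smallest. Both rose on imbibition to a like degree, with log2 ratios of 1.21 and 1.01. The difference of 1.43 between their TSA ratios was 2.69-fold, against the 0.56 by which probe sets of the same locus differed. As this pair is the widest of 26, that typical spread cannot set it apart from probe set error. The other discordant pair was in L13a, whose genes AT4G13170 and AT5G48760 differed by 1.06. AT4G13170 had 86.8 with TSA, 446 without it and 137 in unimbibed seed. AT5G48760 had 55.4 with TSA, 137 without it and 123 in unimbibed seed, so that its untreated and unimbibed signals were close together. The L13a gene AT3G07110 had 188 with TSA, 878 without it and 270.4 in unimbibed seed. The last of the family, AT3G24830, had 348 with TSA, 978 without it and 489.9 in unimbibed seed. In the main scaling untreated imbibed seed was highest for every L13a gene, but for AT5G48760 its log2 ratio over unimbibed seed was only 0.15 and turned to -0.09 with the medians of all probe sets made equal.

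The change on imbibition alone was read from untreated imbibed against unimbibed seed. Of the 36 measured genes 27 rose and 0 fell, where 22.6% of all measured probe sets were higher and 21.1% lower. The median log2 ratio was 1.26, a level 2.40-fold higher after imbibition, against 0.01 over 16246 measured probe sets, and the ratios ran from -0.40 to 2.74. At least 3-fold higher were 12 of the 36, against 13.5% of all measured probe sets. The largest rises, both at least 4-fold, were in AT5G60670 of L12 and AT1G27400 of L17. The share of all probe sets at 4-fold was not computed for this comparison. Not past 2-fold were 9 genes: AT1G80750, AT3G51190, AT1G08360, AT2G27530, AT3G24830, AT5G48760, AT5G27850, AT3G14600 and AT4G02230. Of these AT3G24830 was just short of the threshold. The SD over the members was 0.59, wider than the 0.35 of the TSA comparison. The sizes here depend on the scaling, which moved all ratios in this comparison by -0.24 to 1.68, and the median of the members stayed above 0 under each scaling tried.

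L7, a protein bound to the ribosomal RNA of the large subunit, held the 1 gene below 0. AT1G80750 had 19.1 with TSA, 54.6 without it and 71.8 in unimbibed seed. It was highest in unimbibed seed, with a log2 ratio of -0.40 for untreated imbibed over unimbibed seed. Its paralogs rose on imbibition. AT2G01250 had 349 with TSA, 1109 without it and 361 in unimbibed seed. AT2G44120 had 180.4 with TSA, 682 without it and 253 in unimbibed seed. AT3G13580 had 45.01 with TSA, 131 without it and 55.2 in unimbibed seed. AT1G80750 and AT2G01250 differed by 2.02 in their imbibition ratio, the widest paralog difference in the list, although their TSA ratios were -1.52 and -1.67. Its ratio also changed sign with the scaling: it was 0.32 without any scaling, 0.35 with the hybridisation controls and 1.28 with the poly-A controls made equal, each of which moved all ratios upward, and its distance from its paralogs does not depend on such a shift. Over all paralogs, 8 of 26 pairs (30.8%) differed by over 1 in the imbibition ratio, in L7, L12, L13a and L19, against 126 of 604 pairs of genes for different proteins (20.9%). Probe sets of the same locus differed by 1.03 in this comparison (root mean square over 38 loci). The L12 and L19 differences, at 1.04 to 1.08, were close to that spread, while those of L7 and L13a, at 1.55 to 2.02, were larger. These pairs are the widest of 26, so a typical spread cannot set them apart from probe set error.

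**Figure D3:**
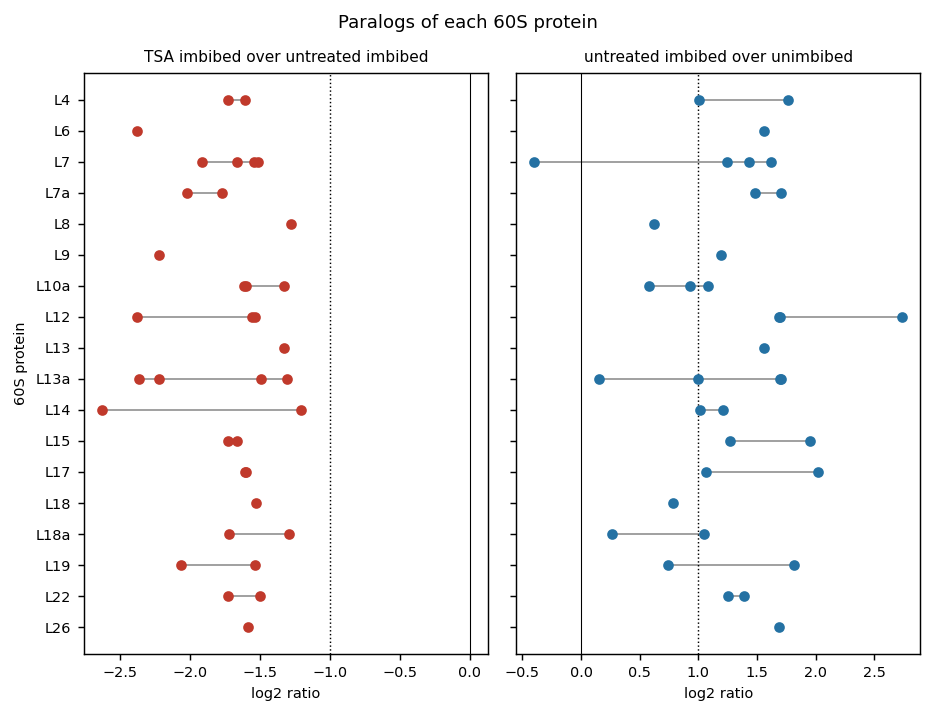
Log2 ratio of scaled signals (x axis) for each measured gene (points), joined by a line within each 60S protein (rows), for TSA over untreated imbibed seed (left) and untreated imbibed over unimbibed seed (right); dotted lines mark 2-fold. L14 has the widest spread on the left, -2.63 and -1.20, and L7 on the right, where AT1G80750 lies at -0.40.

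TSA-treated seed was also set beside unimbibed seed. Of the 36 genes 0 rose and 6 fell, where 23.3% of all measured probe sets were higher and 23% lower. The median log2 ratio was -0.49, against -0.07 over all measured probe sets, with a range from -1.91 to 0.41. The genes that fell were AT1G80750 (L7), AT2G20450 (L14), AT5G48760 (L13a), AT3G14600 (L18a), AT4G10450 (L9) and AT2G27530 (L10a). The sign of the median turned with the scaling. It was 0.25 without any scaling, 0.18 when the hybridisation controls were made equal and 0.76 when the poly-A controls were. The medians over all measured probe sets were then 0.50, 0.45 and 0.82. The members thus stayed below them, as in the main scaling. The counts were then 2 higher and 1 lower, 2 higher and 1 lower, and 14 higher and 0 lower. Over all measured probe sets 35.2% were higher and 11.6% lower, 34% and 12.5%, and 44.5% and 6.81%, in the same order. With poly-A controls 35 members were measured, so their share of higher genes was not above that of all probe sets. After the main scaling 28 of the 36 genes were lower with TSA than in both other states and 8 lay between them, whereas in the deposited signals 10 were below both and 26 lay between.

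A measure that needs no scaling is the share of an array's total non-control signal held by these 37 probe sets. It was 0.638% with TSA, 2.05% in untreated imbibed seed and 0.674% in unimbibed seed. The share with TSA and that in unimbibed seed were close to each other, and both were lower than in untreated imbibed seed. A share also depends on the brightest transcripts of an array, which differ between the states.

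**Figure D4:**
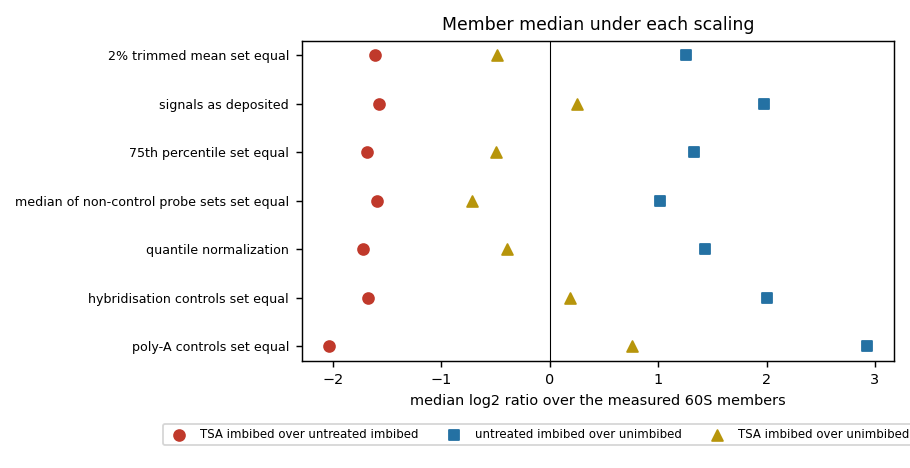
Median log2 ratio over the measured 60S genes (x axis) under each scaling of the arrays (rows), for TSA over untreated imbibed (red circles), untreated imbibed over unimbibed (blue squares) and TSA over unimbibed seed (yellow triangles). The red circles stay between -2.04 and -1.58 and the blue squares between 1.02 and 2.93, while the triangles lie on both sides of 0.

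Other genes of the translation machinery were described from lists. Further 60S proteins outside the 60 loci had 41 measured genes of 69 listed, of which 36 fell and 0 rose with TSA, and their median log2 ratio was -1.47. The largest in size were AT3G06680, with 33.4 with TSA, 158 without it and 18.5 in unimbibed seed, and AT5G47700, with 116 with TSA, 465 without it and 153 in unimbibed seed. Of 43 measured 40S protein genes, from 90 listed, 34 fell and 0 rose with TSA, with a median of -1.49. Among these AT5G39850 was at the floor with TSA, at 6.53 against 72.1 without it and 273 in unimbibed seed. AT3G53890 had 130.2 with TSA, 567 without it and 108 in unimbibed seed. On imbibition without TSA, 24 of 42 further 60S genes rose and 0 fell, and 20 of 43 40S genes rose and 1 fell, with medians of 1.09 and 0.92. Thus the lists of both subunits had medians of the same sign as the members in each of these comparisons.

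The lists outside the cytosolic ribosome had medians unlike those of the members with TSA, on imbibition or in both comparisons. Ribosome biogenesis factors, which process ribosomal RNA and assemble the subunits, had 13 measured genes of 38 listed. With TSA 10 fell and 0 rose, with a median of -1.38, where 9.51% of all measured probe sets were lower and 10.4% higher. On imbibition, however, 0 rose and 2 fell, with a median of -0.41, where 22.6% of all measured probe sets were higher and 21.1% lower. That imbibition median turned to 0.31 without any scaling, 0.34 with hybridisation and 1.27 with poly-A controls made equal, where the members had 1.97, 2.005 and 2.93. AT5G14520 of this list had 31.0 with TSA, 142 without it and 253 in unimbibed seed, and AT2G40360 had 30.7 with TSA, 125 without it and 108 in unimbibed seed. The L7 gene AT1G80750, at -0.40 on imbibition, was near the imbibition median of this list. Its TSA ratio of -1.52 was nearer the median of the 60S members, -1.61. Of 9 measured cytosolic translation factors, from 44 listed, 1 rose and 2 fell with TSA, with a median of -0.29. With 9 genes these counts are too few to set apart from the shares over all probe sets. AT5G19510 had 615 with TSA, 1540 without it and 520 in unimbibed seed. AT1G36730 had 135 with TSA, 36.7 without it and 296 in unimbibed seed. Plastid 50S proteins encoded in the nucleus build the ribosome of the chloroplast. They had 6 measured genes of 22 listed, of which 0 rose and 0 fell with TSA. With 6 genes these counts too cannot be set apart from the shares over all probe sets. The TSA median of this list was 0.17, and -0.26 with poly-A controls made equal. On imbibition, in contrast, 5 of 6 rose, with a median of 1.58. AT5G65220 of this list had 513 with TSA and 373 without it, and AT4G01310 had 265 with TSA and 198 without it.

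Markers of other cell types and stages also moved with TSA. All 4 measured photosynthetic markers rose, with a summed signal of 6852 with TSA against 1156 without it. Of 6 dry seed markers 5 rose, with a summed signal of 1278 with TSA against 232 without it and 41894 in unimbibed seed. Both measured root hair markers fell, with a summed signal of 101 with TSA against 269 without it, and were at the floor in unimbibed seed. Of the seed coat and endosperm list only BAN had a probe set of its own, and it was below the floor on all arrays, so no gene of that list was measured. Whether a change in the make-up of the seedlings had a part in the lower 60S signals was not tested.

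**Figure D5:**
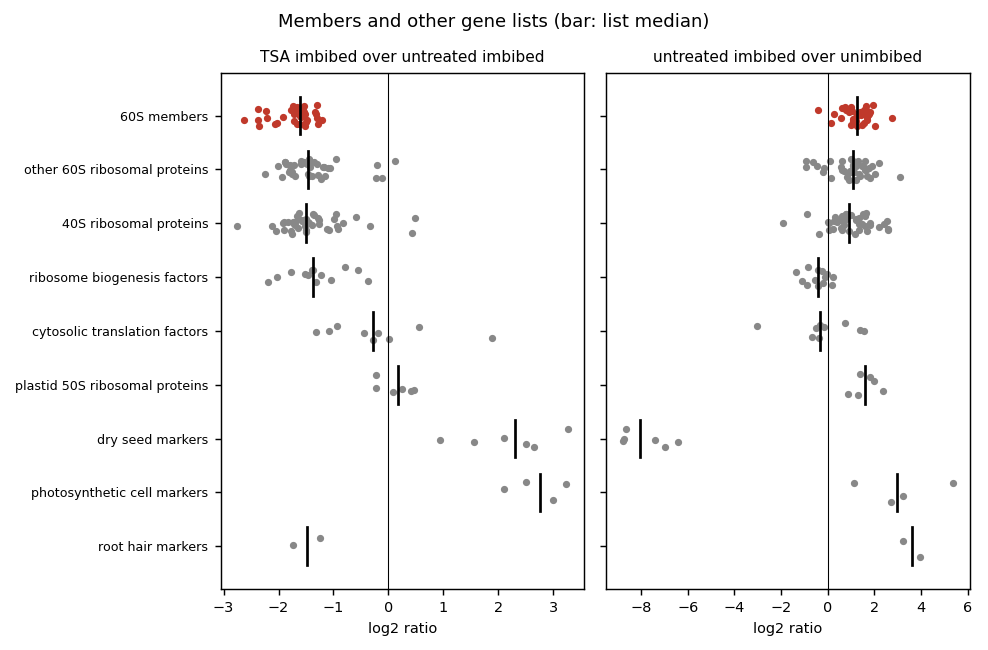
Log2 ratio of scaled signals (x axis) of the measured genes of each list (points, rows) for TSA over untreated imbibed seed (left) and untreated imbibed over unimbibed seed (right); the vertical bar is the list median and red marks the 36 genes of the 60S list. The further 60S and 40S lists and the biogenesis factors have medians between -1.49 and -1.38 on the left, while the plastid 50S proteins lie near 0.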

How the data were processed

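RNA from 3 seed samples was hybridised to 1 array each. The deposited values are intensity values, 1 MAS5 signal per probe set on a linear scale, per the submitters' processing notes; its version, scaling target and detection calls were not given in the sources used here. Every column was mapped by name. The table holds 22810 probe sets, of which 64 are controls. Deposited 2% trimmed means (2% cut at each end) were 44.4 with TSA, 43.4 untreated and 26.5 unimbibed, and factors of 0.859, 0.877 and 1.44 made them equal. Such scaling hides a change in total messenger RNA. Of the non-control signals 61.2%, 61.7% and 57.0% were above the floor in the same order.

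Genes came from the platform annotation, linked by gene ID to the RefSeq table of TAIR10.1: 13513 probe sets pair with 1 gene, 503 with several and 8730 with none. The last group may still measure genes. No array build was stated, so no coordinates are given, and no sequences are printed. The protein of each locus was assigned from general knowledge of the Arabidopsis families. The planned check of these names by alignment or by a table was not made for most loci, because no protein sequences were used here. Every member with a probe set of its own may be named; from each other list the 2 genes with the largest TSA ratio in size are named. The members and lists were chosen with earlier results of these data known.

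A member was measured where a signal was above the floor on at least 1 of the arrays compared. Since each group has 1 array, nothing was tested, and this number limits the precision. Python 3.11.15 with numpy 2.4.6, pandas 2.3.3 and scipy 1.17.1 was used, and the ratio procedure was tested on simulated data. Scaling, floor, fold threshold and choice of probe set were varied in 12 alternatives. The values of other lists and of AT1G80750 and AT5G48760 under other scalings were added after seeing the data.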

Additional observations from a re-analysis of the deposited data

How the results depend on the processing

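Over 12 alternatives, 109 of 138 recomputed values stayed close to those given above: counts within 1.5 times, and medians within the SD of the hybridisation controls. Part of this was fixed in advance. The brightest probe set alone could change nothing, since each gene has 1 probe set. A scaling by 1 factor per array leaves paralog differences as they are, apart from genes at the floor. No median of at least 1 in size changed sign. The count of genes lower with TSA than without was 35 to 37 under every alternative but the 3-fold threshold (21), and its median moved only with poly-A controls set equal (-2.04). The lower share of all measured probe sets ran from 8.88% with the floor at the 60th percentile to 22.1% with poly-A controls. At 1.5-fold it was 21.4%, without a floor 18.7% and at 3-fold 2.76%. The imbibition median was 1.97 as deposited, 1.02 with medians set equal, 1.43 with quantile normalization, 2.005 with hybridisation and 2.93 with poly-A controls. The count of genes that rose was 12 at 3-fold, against 13.5% of all measured probe sets. For TSA against unimbibed seed the sign of the median changed. It was 0.25 as deposited, -0.72 with medians set equal, 0.18 with hybridisation and 0.76 with poly-A controls. The median over all measured probe sets was 0.50, -0.26, 0.45 and 0.82 in the same order, above that of the members each time. The count of higher genes there was 2 as deposited, 2 with hybridisation and 14 with poly-A controls, and 1 without a floor. The shares of all measured probe sets that were higher were 35.2%, 34%, 44.5% and 29.6%. The count of lower genes was 1, 1 and 0 in those scalings, 3 with quantile normalization, 14 at 1.5-fold and 1 at 3-fold. The shares of all measured probe sets that were lower were 11.6%, 12.5%, 6.81%, 23.4%, 34% and 12.7%. Paralog pairs differing in the TSA ratio numbered 1 with quantile normalization, 7 at 1.5-fold and 0 at 3-fold. Those of the imbibition ratio numbered 15 and 3, and those of TSA over unimbibed 10 and 2, at the same thresholds. The matching shares among pairs of genes for different proteins were not computed. A threshold changes a count by its construction. By construction too, a scaling by 1 factor per array shifts all ratios of a comparison by the same amount, apart from genes at the floor. As deposited this shift was 0.71 for untreated imbibed over unimbibed and 0.74 for TSA over unimbibed seed. The cause of the other moves was not tested. Where the scaling moved calls over all probe sets, higher and lower shares on imbibition were 22.6% and 21.1% in the main scaling, 35.3% and 11.3% as deposited, and 57.3% and 4.76% with poly-A controls. Dim genes such as AT3G51190 are limited by the floor: at the 60th percentile it was no longer called lower. No replicate could be left out, and no paired analysis was possible because each group has 1 array.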
